A study of Oryctolagus cuniculus with 24 samples.

Results

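MPP1, RAB5C, SDCCAG8 and PHYH were genes of rabbit peripheral blood mononuclear cells (PBMCs) whose mRNA stood below the mock-stimulated level 4 hours (T4) after lipopolysaccharide (LPS) and above it at 24 hours (T24). They were picked for that pattern, so their LPS values are a description and were not tested. PHYH was followed as 2 entries, the Ensembl transcript ENSOCUT00000015242 and the expressed sequence tag lcaw0079.e.09.a_5.1.fwd1, which gave 5 entries among 28865 genes and 16 probes among 42089. The study gave both entries their PHYH name only as putative, by sequence similarity and under different gene numbers, so whether they measure the same gene is not settled. PBMCs were separated on a density gradient from the blood of 4 adult females of the New Zealand White breed. The animals are called rabbits 1, 2, 4 and 5, and the cells of each gave all 6 cultures. The groups were Control (mock-stimulated), LPS at 1 µg/mL, and PMA-Ionomycin, which is phorbol myristate acetate at 10 ng/mL with the calcium ionophore ionomycin at 1 µg/mL, each at T4 and T24. The RNA of each culture was hybridised to its own one-colour Agilent array, which gave 24 arrays and 4 rabbits per group.

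LPS is a cell wall component of Gram-negative bacteria that is sensed through Toll-like receptor 4, mainly by monocytes. PMA with ionomycin bypasses surface receptors by activating protein kinase C and raising calcium, and strongly activates T cells. The 4 genes act in different places of the cell. MPP1 (p55) is a palmitoylated scaffold of the membrane-associated guanylate kinase (MAGUK) family that ties the membrane skeleton to the plasma membrane, first known from red cells. RAB5C is a member of the RAB5 GTPases, which direct the fusion and traffic of early endosomes. SDCCAG8 is a centrosomal protein needed for primary cilia. PHYH is the peroxisomal phytanoyl-CoA hydroxylase that starts the breakdown of phytanic acid, a branched fatty acid taken up with food.

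The probe sequences are shown because they decide what each value measured. MPP1 had 2 probes of 60 bases that shared a stretch of 30 bases, given in capitals, so its probes were not separate measurements of the transcript. The files give no genome position for them.
A_04_P078298: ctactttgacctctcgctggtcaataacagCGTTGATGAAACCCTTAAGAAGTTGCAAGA
A_04_P078297: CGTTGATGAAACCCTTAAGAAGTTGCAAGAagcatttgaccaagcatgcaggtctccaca

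A pair of further probes, listed under the expressed sequence tags lcaf0024.o.15.a_5.1.rev1 and lcao0024.b.07.c_5.1.rev1 with no symbol, covered nearly the same bases of MPP1 and were not counted as members. The probe of lcaf0024.o.15.a_5.1.rev1 had 57 bases in common with A_04_P078297, all identical. The probe of lcao0024.b.07.c_5.1.rev1 had 58 in common and differed at 1, A40G, counted from the 5′ end of the tag's probe and shown in capitals.
lcao0024.b.07.c_5.1.rev1: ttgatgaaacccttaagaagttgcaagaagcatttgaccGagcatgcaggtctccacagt

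RAB5C had 5 probes, each shifted by 1 base from the one before, and the most upstream of them is shown. On build oryCun2 the files place it at chr19:42957513-42958241 on the minus strand, a span longer than the probe itself. SDCCAG8 had 1 probe, at chr16:24037407-24037466 on the minus strand of the same build. No annotation of that build was used here, so exons are not assigned.
RAB5C A_04_P089191: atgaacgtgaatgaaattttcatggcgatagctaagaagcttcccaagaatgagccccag
SDCCAG8 A_04_P093207: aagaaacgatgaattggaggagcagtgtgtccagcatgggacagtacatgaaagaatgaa

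The Ensembl PHYH transcript was measured at 2 places. The first was covered by 5 probes shifted by 1 base each, starting at bases 416 to 420 of the transcript, and the second by 2 overlapping probes starting at bases 860 and 890. The probe of the PHYH tag overlapped the last of the 5 by 30 bases and differed from it at 1, A13C, counted from the 5′ end of the tag's probe. The capitals mark that base in both. The first place lay at chr16:17989778-17989841 and the second at chr16:17981467-17981556, both on the minus strand of oryCun2.
PHYH A_04_P026051, first place: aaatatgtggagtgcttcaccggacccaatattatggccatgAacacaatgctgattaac
PHYH lcaw0079.e.09.a_5.1.fwd1: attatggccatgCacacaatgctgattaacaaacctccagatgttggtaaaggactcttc
PHYH A_04_P067429, second place: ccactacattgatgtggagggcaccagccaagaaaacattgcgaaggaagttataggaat

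A level below is the log2 median brightness of a gene's spots minus the median of its array, so 0 is the middle spot of the array and a difference of 1 is a doubling. Between 51.4 and 62.3% of the spots on an array were well above background, the scanner's test against the local surroundings. The LPS T4 arrays ranged from 51.4%, in rabbit 4, to 59.8% and the Control T4 arrays from 55.2 to 60.8%. Among the 4674 genes with a symbol that were well above background on all 24 arrays, the median LPS difference at T4 was −0.17, with 3324 below Control. Under quantile normalization, which gives all arrays the same distribution, that median was −0.02, and the difference at T24 was 0.02 and 0.01 under the 2 scalings. The arrays sat on 3 slides of 8, and each slide held arrays of all 6 groups.

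At T4 after LPS, all 5 entries were lower than Control in 4 of 4 rabbits, and for each of them the highest LPS array was below the lowest Control array. Over all genes tested for it, 5.05% had that order of the arrays, and since the genes were picked on this comparison the figure is given only as its background. MPP1 stood at 1.74, 3.07, 2.80 and 3.08 in Control T4 (rabbits 1, 2, 4 and 5) and at 1.51, 1.16, 0.92 and 1.40 in LPS T4. The LPS arrays lay close together, while the Control array of rabbit 1 was well below the other three. The mean difference of MPP1 was −1.43 (SE 0.31), or 2.69-fold lower. Each SE here and below comes from the linear model fitted to all arrays (limma), without pairing by rabbit. It is therefore not the spread of the differences within rabbits. For MPP1 those ranged from −0.23 in rabbit 1 to −1.92 in rabbit 2, with an SD of 0.81 (n = 4).

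RAB5C stood at 1.60, 2.01, 2.09 and 1.86 in Control T4 and at 1.21, 1.29, 0.51 and 1.11 in LPS T4, a mean difference of −0.86 (SE 0.19). Rabbit 4 had the lowest LPS level and so the largest difference, −1.57, against −0.39 to −0.75 in the others. SDCCAG8 moved least and varied least, from 0.84, 0.81, 1.01 and 0.85 in Control T4 to 0.51, 0.43, 0.53 and 0.43 in LPS T4, a difference of −0.41 (SE 0.09), or 1.32-fold lower. The Ensembl PHYH transcript stood at 0.79, 2.0, 1.66 and 1.64 in Control T4 and at 0.33, 0.63, 0.52 and 0.59 in LPS T4, a difference of −1.0 (SE 0.19). As with MPP1, the Control array of rabbit 1 was the low one and its LPS difference, −0.46, the smallest. The PHYH tag went from 0.08, 0.98, 0.85 and 0.80 to −0.24, −0.14, −0.28 and −0.12, a difference of −0.87 (SE 0.16), with 3 of the 4 LPS arrays well above background. Rabbit 1 had the smallest difference at T4 for all 5 entries.

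At T24 after LPS, all 5 entries were higher than Control in 4 of 4 rabbits. SDCCAG8 and both PHYH entries had all 4 LPS arrays above all 4 Control arrays, an order that 2.07% of all genes showed, and MPP1 and RAB5C overlapped. MPP1 stood at 4.80, 4.18, 3.47 and 4.18 in Control T24 and at 5.90, 5.69, 4.92 and 4.65 in LPS T24, a difference of 1.13 (SE 0.31), or 2.19-fold higher. The LPS array of rabbit 5 lay below the highest Control array, that of rabbit 1. RAB5C stood at 2.61, 2.37, 2.0 and 2.18 in Control T24 and at 3.25, 3.47, 2.95 and 2.55 in LPS T24, a difference of 0.77 (SE 0.19). Its LPS array of rabbit 5 was below the Control array of rabbit 1.

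SDCCAG8 stood at 0.94, 0.87, 0.83 and 1.12 in Control T24 and at 1.20, 1.39, 1.31 and 1.26 in LPS T24, a difference of 0.35 (SE 0.09), or 1.27-fold higher. The Ensembl PHYH transcript stood at −0.12, −0.43, −0.57 and −0.26 in Control T24 and at 0.98, 1.06, 0.40 and 0.76 in LPS T24, a difference of 1.15 (SE 0.19), or 2.21-fold higher. The PHYH tag stood at −0.57, −0.83, −0.87 and −0.51 in Control T24, with 1 of 4 arrays well above background, and at 0.43, 0.32, −0.24 and 0.13 in LPS T24. Its difference was 0.86 (SE 0.16). Rabbit 5 had the smallest difference for MPP1 (0.47), RAB5C (0.37) and SDCCAG8 (0.13), so the rabbit with the weakest response was not the same at both times.

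**Figure D1:**
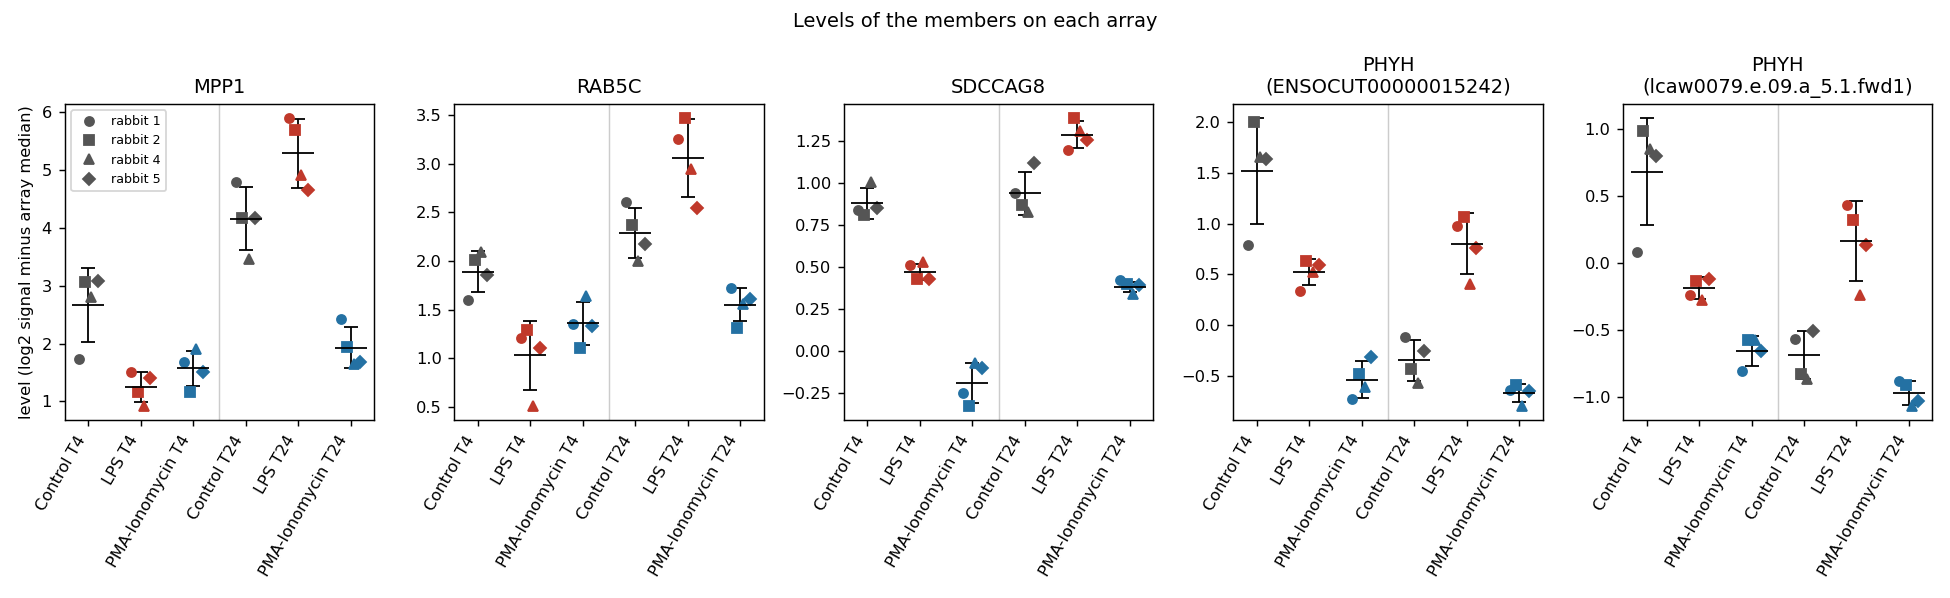
Level of each entry (log2 median signal minus the array median, y axis) on all 24 arrays by group (x axis), with 1 point per rabbit and the mean ± SD of 4 rabbits. LPS means lie below Control at 4 h and above it at 24 h in every panel, while Control itself moved from 2.67 to 4.16 for MPP1 and from 1.52 to −0.35 for the Ensembl PHYH transcript.

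The same turn was reached from different directions, because Control itself changed with time. MPP1 in Control was 1.48 higher at T24 than at T4, and in LPS it was 4.04 higher, or 16.5-fold. RAB5C was 0.40 higher in Control and 2.03 higher in LPS. SDCCAG8 differed by 0.06 in Control and by 0.81 in LPS. PHYH fell in Control from T4 to T24, by 1.87 for the Ensembl transcript and by 1.37 for the tag, and in LPS its mean was 0.28 and 0.35 higher at T24. For PHYH the higher LPS value at T24 was therefore a value above a Control that had dropped, and for MPP1 a value above a Control that had risen.

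The order of the 6 groups differed in the same way. For MPP1 and RAB5C it ran LPS T24, Control T24, Control T4, PMA-Ionomycin T24, PMA-Ionomycin T4, LPS T4 from high to low. Neighbours in that order had overlapping arrays for both genes, except Control T24 and Control T4 for MPP1, and the RAB5C means in PMA-Ionomycin at T24 and T4 were 0.19 apart against a pooled SD of 0.20. For SDCCAG8 the order was LPS T24, Control T24, Control T4, LPS T4, PMA-Ionomycin T24, PMA-Ionomycin T4, and only the Control groups overlapped, 0.06 apart against an SD of 0.11. For the Ensembl PHYH transcript it was Control T4, LPS T24, LPS T4, Control T24, PMA-Ionomycin T4, PMA-Ionomycin T24, where LPS T4 and Control T24 were the only neighbours that did not overlap. That LPS T24 stood above LPS T4 held at the first probe place (0.76 and 0.12) and turned at the second (0.92 and 1.51). The PHYH tag ran Control T4, LPS T24, LPS T4 from high to low, and its other 3 groups, well above background on 1 of their 12 arrays, have no order.

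These are bulk samples, in which fewer cells of a type and less RNA per cell cannot be told apart. Of 12 listed monocyte markers 8 were on the array, and their mean level was 3.08 to 3.78 in Control T4, 2.30 to 3.23 in LPS T4 and 2.50 to 2.90 in PMA-Ionomycin T4. At T24 it was 3.51 to 5.27 in Control, 4.32 to 5.40 in LPS and 1.45 to 2.20 in PMA-Ionomycin. Within rabbits 1, 2, 4 and 5 the mean differed from Control by −0.26, −1.13, −1.48 and −0.44 after LPS at T4, and by 0.13, 0.58, 1.24 and 0.81 at T24. It was thus lower at T4 and higher at T24 in 4 of 4 rabbits, as the picked genes were, with its smallest T4 difference in rabbit 1, as theirs. The T cell, B cell and NK cell markers, given below, were also lower at T4 in 4 of 4 rabbits. Those of T and NK cells also differed least in rabbit 1. For the monocyte mean LPS T24 and Control T24 were highest, as for MPP1 and RAB5C, but the lowest was PMA-Ionomycin T24, where those genes had LPS T4. With limma, 2 of the 8 were called lower after LPS at T4, CD14 (−1.55, adjusted p = 0.0372) and CSF1R (−1.44, adjusted p = 0.0492), and 1 was called higher at T24, S100A9 (2.35, adjusted p = 0.0419). The call of CD14 was lost without rabbit 2 (−1.34, adjusted p = 0.223) or 4 (−1.38, adjusted p = 0.463), that of CSF1R without rabbit 1, 2 or 4 (adjusted p from 0.064 to 0.63), and that of S100A9 without rabbit 2, 4 or 5 (adjusted p from 0.123 to 0.57). Under quantile normalization the calls of CD14 (limma adjusted p = 0.0622) and CSF1R (0.0677) were lost and that of S100A9 was kept (0.0336). With rabbit as a block each of these calls was kept. The median of the 8 was −0.83 at T4 and 0.08 at T24, where S100A8 differed by 2.79 (adjusted p = 0.104), CSF1R by 0.01, CD14 by −0.13 and CD68 by −0.60. Of 8 platelet markers 5 were on the array, and GP1BA was well above background on no array. The mean level of the 5 was 0.77 to 1.66 in Control T4, 0.48 to 1.21 in LPS T4 and −0.52 to 0.36 in PMA-Ionomycin T4. At T24 it was −0.87 to −0.36 in Control and −0.92 to −0.67 in LPS, so it was low in Control T24 as PHYH was, but was not higher after LPS at T24. The part of these cell types in the results was not tested.

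The T cell markers found, 6 of 10, had mean levels of 0.40 to 0.86 in Control T4 and 0.26 to 0.83 in LPS T4, and the 6 of 8 B cell markers found had 3.70 to 4.31 and 3.03 to 3.97. Within rabbits 1, 2, 4 and 5 the T cell mean differed from Control after LPS at T4 by −0.02, −0.04, −0.21 and −0.14. The B cell mean differed by −0.31, −0.15, −0.67 and −0.34. Both were thus lower in 4 of 4 rabbits at T4, and each was higher in 2 of 4 at T24. Neither list had a gene called after LPS at either time. The NK cell marker found, 1 of 5 (PRF1), was lower after LPS at T4 (−0.44, adjusted p = 0.478) and higher at T24 (0.30, adjusted p = 0.794) in 4 of 4 rabbits and was called at neither time. The 3 of 6 dendritic cell markers found had a median of −0.37 at T4 and 0.09 at T24, and the 5 of 8 erythrocyte markers found 0.0039 and 0.07, with none called. The 5 of 7 neutrophil markers found had a mean level of 1.89 to 2.43 in Control T4, 1.94 to 2.30 in LPS T4, 3.34 to 3.81 in Control T24 and 2.91 to 3.28 in LPS T24. After LPS at T24, MPO (−1.63, adjusted p = 0.000571 with limma) and CAMP (−1.92, adjusted p = 0.00411) were called lower, and at T4 none of the 5 was called. The call of CAMP was lost without rabbit 4 (adjusted p = 0.161).

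The pattern was rare among called genes and common without a threshold. With limma, 0.973% of all genes were called lower after LPS at T4 and 0.641% higher at T24, at a Benjamini-Hochberg adjusted p under 0.05. Both calls together were met by 4 entries, 0.0139% of all, namely RAB10, RAB5C and the 2 PHYH entries, which are not separate measurements because their probes overlap. SDCCAG8 and MPP1 met the limit at T4 and lay outside it at T24. The picked genes owe their place to these same values, so their side of the limit is a description and not a test. The limit itself was unsteady. With limma 0 entries met both calls when rabbit 2, 4 or 5 was left out, although 173, 312 and 294 met both at an unadjusted p under 0.05, and without rabbit 1 the count was 6. It was 22 with rabbit as a block. Without a threshold, 21.0% of all genes, and 44.1% of the 4674 genes well above background on all arrays, were lower at T4 and higher at T24. Under quantile normalization the last share was 36.1%.

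**Figure D2:**
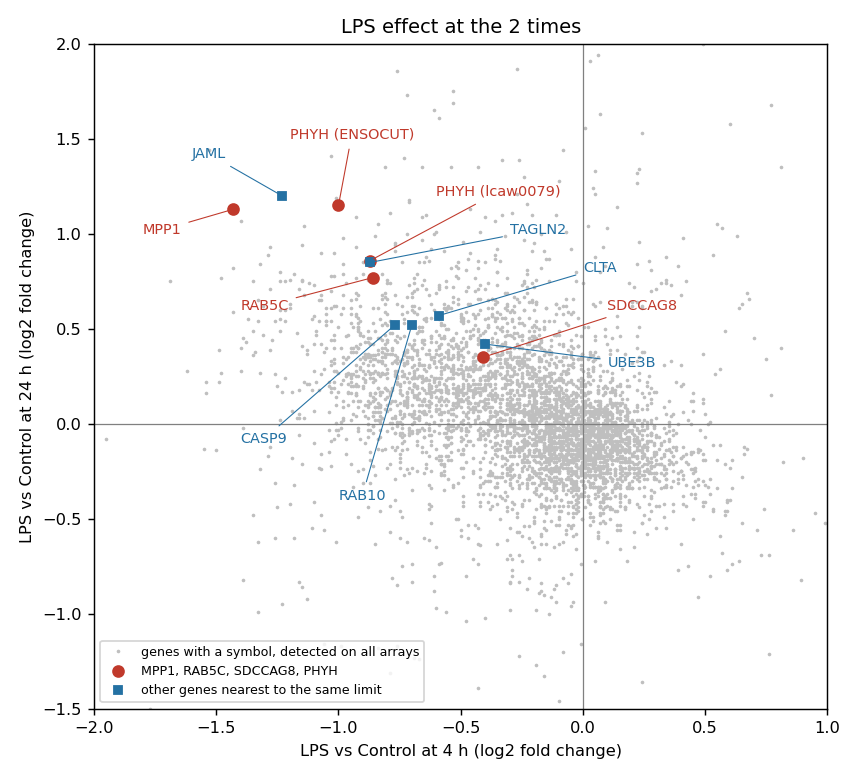
LPS minus Control at 4 h (x axis, log2) against the same at 24 h (y axis, log2) for the genes with a symbol well above background on all 24 arrays, with the entries of MPP1, RAB5C, SDCCAG8 and PHYH and the other named genes marked. The marked genes lie in the upper left part of the plot (lower at 4 h, higher at 24 h), which holds 44.1% of the plotted set, and 44 genes beyond the axis limits are not drawn.

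RAB10, a GTPase of exocytic and endosomal traffic, was the one gene called at both times that had not been picked. It stood at 4.69, 5.03, 5.09 and 4.89 in Control T4 and at 4.43, 4.15, 4.08 and 4.24 in LPS T4, a difference of −0.70. At T24 it stood at 5.23, 5.0, 4.86 and 4.82 in Control and at 5.62, 5.59, 5.38 and 5.40 in LPS, a difference of 0.52. The groups did not overlap at either time, an order that 5.05% of all genes showed at T4 and 2.07% at T24. RAB10 is named because it met the limit on these same values, so they are a description. Under quantile normalization 2 entries met both calls, each of them a picked one, and without rabbit 2, 4 or 5 no entry did. The next 5 genes with a symbol by the larger adjusted p, picked genes apart, passed at T4 only (CASP9) or at neither time. They were CASP9, the initiator caspase of the mitochondrial route (−0.77 at T4 and 0.52 at T24), JAML, a leukocyte junctional adhesion molecule (−1.23 and 1.20), CLTA, a clathrin light chain (−0.59 and 0.57), TAGLN2, an actin-binding protein (−0.87 and 0.85), and UBE3B, a ubiquitin ligase (−0.40 and 0.42). JAML was higher at T24 in 3 of 4 rabbits and the others in 4 of 4.

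After PMA-Ionomycin at T4, all 5 entries were lower than Control with limma, against 9.34% of all genes called lower. The arrays of PMA-Ionomycin were not used to pick the genes, but the Control arrays were, so the comparison is not independent of the choice. The Ensembl PHYH transcript stood at −0.73, −0.48, −0.61 and −0.32, below all Control arrays, with 2 of the 4 well above background. Its difference was −2.06 (SE 0.19, adjusted p = 1.75e-08 with limma), or 4.16-fold lower. Because only 2 of the 4 arrays were well above background, the size of this fall was not fully measured. The PHYH tag was well above background on no array of PMA-Ionomycin T4 and was at least 2.52-fold lower (adjusted p = 9.75e-07 with limma), the bound being set by the tag's own signal. SDCCAG8 stood at −0.25, −0.33, −0.07 and −0.10, also below all Control arrays, with 3 of the 4 well above background. Its difference was −1.07 (SE 0.09, adjusted p = 6.68e-09 with limma). These 3 entries had no overlap between the groups, an order that 9.23% of all genes showed.

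MPP1 and RAB5C overlapped with Control at this time. MPP1 stood at 1.68, 1.17, 1.90 and 1.51 and differed by −1.11 (SE 0.31, adjusted p = 0.00993 with limma), with −0.06 in rabbit 1 and −1.90 in rabbit 2. Without rabbit 2 the difference was −0.84 (adjusted p = 0.169), and without rabbit 5 it was −0.95 (adjusted p = 0.0769). RAB5C stood at 1.35, 1.11, 1.64 and 1.33 and differed by −0.53 (SE 0.19, adjusted p = 0.047 with limma). That call was lost when any 1 of the 4 rabbits was left out, with adjusted p from 0.0673 without rabbit 1 to 0.245 without rabbit 2. With the scanner's processed signal, scaled to the 75th percentile, the differences were −4.07 for the Ensembl PHYH transcript and −2.20 for SDCCAG8, and all 5 entries were called. Within the 3 slides the differences were −0.76 to −1.54 for MPP1, −0.49 to −0.66 for RAB5C, −1.03 to −1.05 for SDCCAG8 and −1.54 to −2.73 for the Ensembl PHYH transcript. With slide as a block no PMA-Ionomycin call of the 5 entries changed. Of the markers called at this time, 3 of the 8 for monocytes (median −0.57), 4 of the 5 for platelets (−0.99), 1 of the 5 for neutrophils and 1 of 1 for NK cells were lower, and 1 of the 6 for T cells was higher. Of the 6 B cell markers 3 were lower and 1 higher (−1.22), with CD79B at −3.93 and BLNK at −3.07, and 2 of the 3 dendritic cell markers were higher (1.37), with CD1C at 4.88. Their part in the results was not tested.

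After PMA-Ionomycin at T24, MPP1, RAB5C and SDCCAG8 were lower than Control with limma, against 11.5% of all genes called lower, and PHYH was not called. MPP1 stood at 2.43, 1.94, 1.65 and 1.69, a difference of −2.23 (SE 0.31, adjusted p = 3.11e-06), or 4.68-fold lower. RAB5C stood at 1.72, 1.31, 1.56 and 1.61, a difference of −0.74 (SE 0.19, adjusted p = 0.0036 with limma). SDCCAG8 stood at 0.42, 0.40, 0.34 and 0.39, a difference of −0.55 (SE 0.09, adjusted p = 2.95e-05 with limma), and its 4 arrays were nearly equal. The Ensembl PHYH transcript stood at −0.64, −0.59, −0.80 and −0.65, a difference of −0.32 (SE 0.19, adjusted p = 0.22 with limma). The tag was well above background on 1 Control array and no PMA-Ionomycin array, so no difference is given for it. With the processed signal the Ensembl PHYH transcript was called (−1.43, adjusted p = 0.00376 with limma), and SDCCAG8 differed by −1.09 and RAB5C by −1.14. The 4 entries other than the tag were lower in 4 of 4 rabbits and did not overlap with Control, an order that 11.0% of all genes showed. The Control T24 arrays were also used to pick the genes. Within the 3 slides the differences were −1.39 to −2.86 for MPP1, −0.37 to −1.29 for RAB5C, −0.50 to −0.56 for SDCCAG8 and −0.22 to −0.47 for the Ensembl PHYH transcript. Of the 8 monocyte markers 7 were called lower here, with a median difference of −2.82. Of the 5 neutrophil markers 3 were lower (CAMP −4.02, MPO −1.58 and LTF −1.07), and of the 6 B cell markers 3 were lower, BLNK (−2.64) and MS4A1 (−2.63) among them, and 1 was higher. The NK cell marker was higher (0.96), 1 of the 6 T cell and 1 of the 3 dendritic cell markers were higher and 1 of each lower, and 1 of the 5 erythrocyte markers was lower. None of the 5 platelet markers was called.

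Between T4 and T24 of PMA-Ionomycin, a comparison with no array that the choice of genes had used, SDCCAG8 rose and the other entries did not pass the test. SDCCAG8 was 0.57 higher at T24 (SE 0.09, adjusted p = 2.11e-05 with limma), or 1.49-fold, higher in 4 of 4 rabbits and without overlap. Its 1 probe was well above background on 3 of 4 arrays at T4 and on 4 of 4 at T24. In this comparison 20.3% of all genes were called higher and 20.4% had all arrays above. Its differences within slides were 0.50 to 0.62, and with the processed signal its rise was 1.06. MPP1 was 0.36 higher (adjusted p = 0.385) and RAB5C 0.19 higher (adjusted p = 0.45), each in 3 of 4 rabbits, and the sign for RAB5C turned under quantile normalization (−0.0012). The Ensembl PHYH transcript differed by −0.13 (adjusted p = 0.597), and for the tag neither group was well above background.

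The PMA-Ionomycin effect at T24 minus that at T4 is given as a description, since the Control arrays that picked the genes stand in it at both times. It was 0.51 for SDCCAG8 (SE 0.13), −1.12 for MPP1 (SE 0.44), −0.20 for RAB5C (SE 0.27) and 1.73 for the Ensembl PHYH transcript (SE 0.26), beside 14.4% of all genes called with a higher effect at T24. For SDCCAG8 Control differed by 0.06 between the times and PMA-Ionomycin by 0.57. For the Ensembl PHYH transcript Control fell by 1.87 and PMA-Ionomycin, near background, differed by −0.13. The tag was well above background on no PMA-Ionomycin array at either time, so its interaction holds no measured PMA-Ionomycin level and is not read here.

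**Figure D3:**
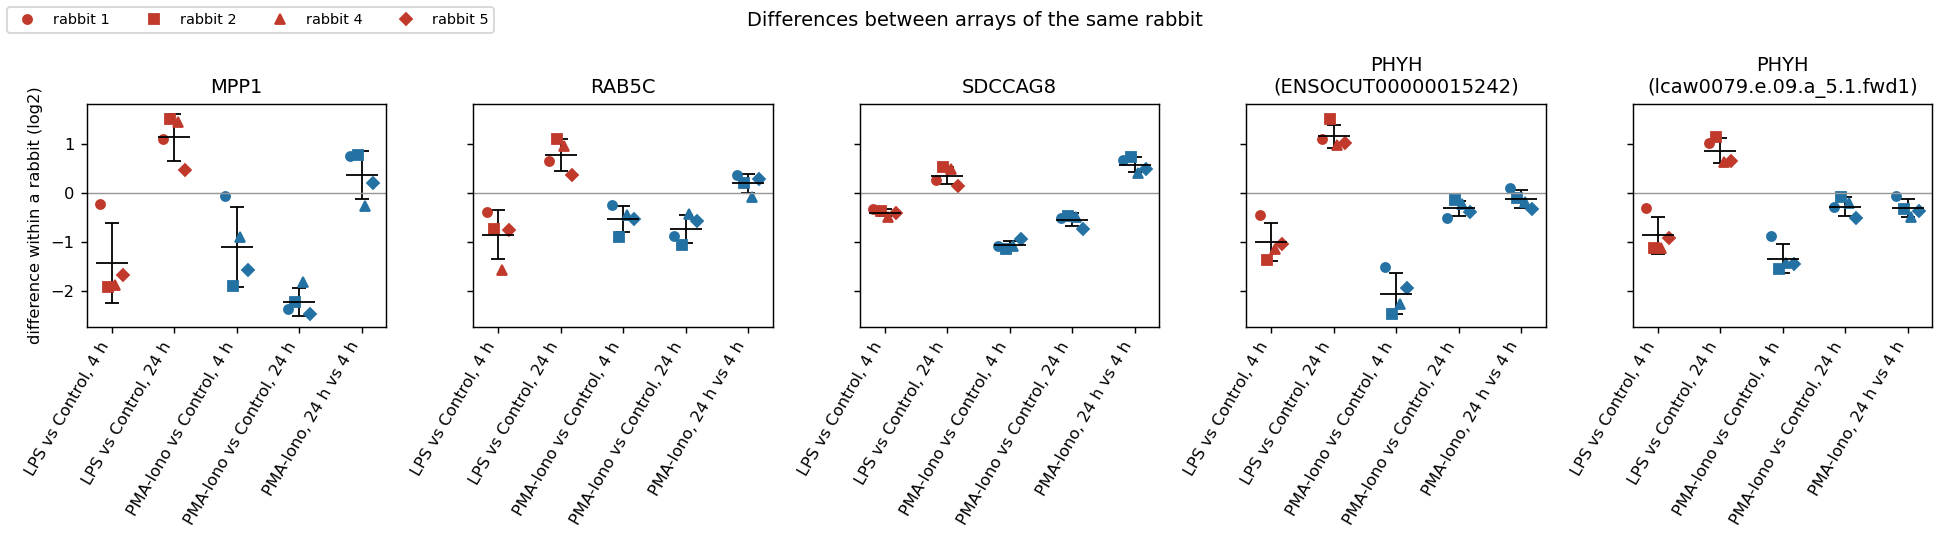
Differences between arrays of the same rabbit (y axis, log2) for the 5 comparisons (x axis), with LPS in red and PMA-Ionomycin in blue, 1 point per rabbit and bars for the mean ± SD of 4 rabbits. LPS differences change sign between 4 h and 24 h in all 5 panels, whereas the PMA-Ionomycin differences from Control are below 0 at both times for MPP1, RAB5C, SDCCAG8 and the Ensembl PHYH transcript. The PHYH tag was well above background on no PMA-Ionomycin array, so its differences there are not read.

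The 2 places of the Ensembl PHYH transcript lay on the same side of Control in all 4 rabbits after LPS at both times. They did so after PMA-Ionomycin too, but there signals were partly near background, as given below, so that agreement is not read. At T4 after LPS the first place differed by −1.12 ± 0.55 (SD, n = 4) and the second by −0.72 ± 0.30, and at T24 by 1.27 ± 0.30 and 0.83 ± 0.15. The second minus the first was 0.40 ± 0.66 at T4, with rabbit 1 at −0.53 and the others at 0.42 to 0.96, so that gap was within the spread between rabbits, and −0.44 ± 0.27 at T24, below 0 in 4 of 4. With time in LPS they moved apart, since the first place was 0.92, 0.95, 0.21 and 0.46 higher at T24 in rabbits 1, 2, 4 and 5, and the second −0.04, −0.85, −0.93 and −0.55. All 4 rabbits had opposite signs at the places. The near-zero time difference of PHYH in LPS is thus the mean of probes that disagree, and it was 0.64 ± 0.36 from the first place and −0.59 ± 0.40 from the second.

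In PMA-Ionomycin the places could not be compared. At T4 each was well above background on 2 of 4 arrays, at −0.58 ± 0.14 and −0.43 ± 0.26, against Control levels of 1.24 at the first place and 2.23 at the second, so the size of the fall was limited by the Control level. At T24 the first place was well above background on 1 of 4 arrays and the second on 4. The tag, whose probe overlaps the first place, had r = 0.98 with the Ensembl entry over the 24 arrays. The entries are thus not independent of each other, and the values do not show whether they come from the same gene.

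**Figure D4:**
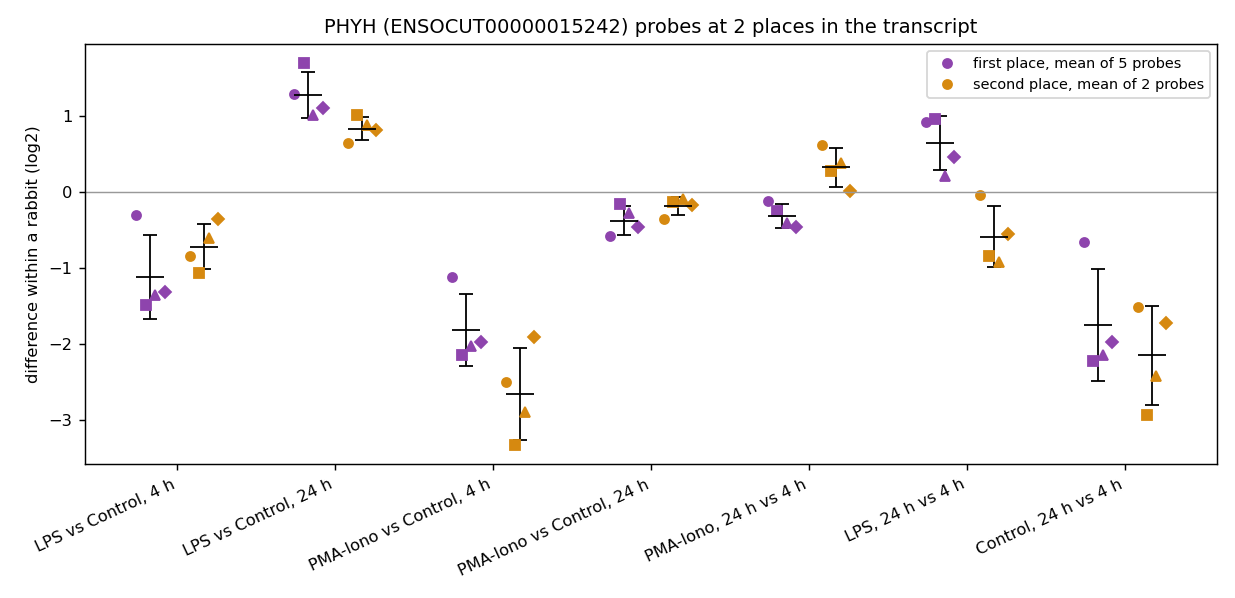
Differences within a rabbit (y axis, log2) at the first and second probe place of the Ensembl PHYH transcript for each comparison (x axis), with 1 point per rabbit (circle 1, square 2, triangle 4, diamond 5) and bars for the mean ± SD. The places lie on the same side of 0 against Control, and on opposite sides for LPS at 24 h against 4 h, where their means are 0.64 and −0.59.

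The MPP1 measurement was repeated by the tag probes on the same bases. The probe of lcaf0024.o.15.a_5.1.rev1 differed by −1.38 at T4 and 1.11 at T24 after LPS, and that of lcao0024.b.07.c_5.1.rev1 by −1.31 and 1.11, beside −1.43 and 1.13 for MPP1. Both had r = 1.0 with MPP1 over the 24 arrays. The LPS differences of the second tag were thus close to those of the first. Its mean level was lower in every group, at 2.38 against 2.74 in Control T4 and 4.95 against 5.33 in LPS T24. The 2 tag probes are also shifted by 1 base, and the effect of A40G was not tested.

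Paralogues of the 4 genes gave other values. RAB5A and RAB5B, the other RAB5 GTPases, differed after LPS at T4 by −0.27 (adjusted p = 0.35 with limma) and −0.28 (adjusted p = 0.285), and at T24 by 0.07 (adjusted p = 0.964) and −0.06 (adjusted p = 0.973). After PMA-Ionomycin RAB5A rose at T4 by 0.43 (adjusted p = 0.0177) and differed by −0.28 at T24 (adjusted p = 0.104). RAB5B fell by 0.88 at T24 (adjusted p = 2.17e-06 with limma). The difference between RAB5C and its paralogues was not tested.

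Of the MAGUK relatives of MPP1, PALS2 and MPP7, both linked to cell polarity, rose after PMA-Ionomycin. PALS2 stood at 0.53 to 1.08 in Control T4 and 1.86 to 2.63 in PMA-Ionomycin T4, a rise of 1.52 (adjusted p = 8.96e-07 with limma), and at T24 it rose by 2.90 (adjusted p = 1.43e-11). MPP7 rose by 0.41 at T4 (adjusted p = 0.0447) and by 1.40 at T24 (adjusted p = 4.4e-08). After LPS neither was called at T4 (0.11 and 0.02) or at T24 (0.37 and −0.23). PALS1 and MPP4 were called in none of these comparisons, MPP2 was well above background on no array, and no probe was named MPP3. PHYHD1, a relative of PHYH, and the PHYH-interacting proteins PHYHIP and PHYHIPL were called in none of the LPS or PMA-Ionomycin comparisons with Control.

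Over the 24 arrays the level of MPP1 followed that of RAB5C, with Pearson's r = 0.96, and SDCCAG8 followed them less closely (r = 0.81 and 0.77). PHYH had r between 0.28 and 0.33 with MPP1 and RAB5C, and 0.56 (Ensembl transcript) and 0.51 (tag) with SDCCAG8. These values describe arrays that share 4 rabbits, 6 groups and the array scaling, and carry no test. Among 4666 genes with a symbol well above background on all arrays, those most like MPP1 were MYO1F, an unconventional myosin of immune cells (0.97), RAB5C, TACC1 (0.96), the endosomal sorting nexin SNX3 (0.96) and SCAMP2, a secretory carrier membrane protein (0.95). RAB5C had CASP9 (0.96), MPP1, TACC1 (0.96), MYO1F (0.95) and SCAMP2 (0.95), so 3 names besides the pair itself stood in both sets.

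The genes most like SDCCAG8 were SNX2 (0.93), MYRFL (0.93), LBR, the lamin B receptor (0.92), COTL1, which binds actin (0.92), and GPSM3 (0.92). The Ensembl PHYH transcript had lower values, with SERPINB2, the plasminogen activator inhibitor type 2 (0.82), ECM1, a secreted matrix protein (0.81), SERPINB8 (0.81), MALT1, a paracaspase of NF-κB signalling (0.79), and IL10RA, a chain of the interleukin 10 receptor (0.78). The tag had ECM1 (0.85), SERPINB2 (0.81), IL10RA (0.78), GTPBP2 (0.77) and NCK2 (0.77).

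The other genes of the 4 pathways were taken as lists, of which 104 distinct genes were on the array. Of 42 genes of RAB5 function and the early endosome, 29 were found, and 26 of them (89.7%) were lower than Control after LPS at T4, beside 39.7% of all genes, with a median of −0.28 against 0.06. Of the 24 well above background on all arrays 21 (87.5%) were lower, beside 71.1% of all such genes, with a median of −0.27 against −0.17. With limma 2 passed the test at T4, beside 1.03% of all genes called in either direction. RIN3, an exchange factor for RAB5, fell by 0.79 (adjusted p = 0.0454), and RAB22A, an endosomal GTPase, fell by 0.45 (adjusted p = 0.0473). At T24 the median was 0.10 against −0.03, 22 (75.9%) were higher, beside 42.0% of all genes (17 of 24, or 70.8%, beside 52.4% among those on all arrays), and 1 passed the test, beside 1.22% of all genes, namely the sorting nexin SNX1, which rose by 0.85 (adjusted p = 0.0414 with limma). Of the 29 genes 20 (69.0%) were lower at T4 and higher at T24, beside 21.0% of all genes, and of the 24 well above background on all arrays 15 (62.5%), beside 44.1% of all such genes. Both calls at T4 were lost under quantile normalization (adjusted p = 0.0775 for RIN3 and 0.0923 for RAB22A) and when any 1 of the 4 rabbits was left out (0.0597 to 0.582 and 0.067 to 0.565). With rabbit as a block both were kept (limma adjusted p = 0.0217 and 0.0243). The call of SNX1 was lost without rabbit 1, 2 or 4 (0.101 to 0.383).

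After PMA-Ionomycin 9 of the 29 endosome genes were called higher and 3 lower at T4, beside 13.5% and 9.34% of all genes. The tether EEA1, which binds RAB5, rose by 1.30 (adjusted p = 1.81e-05 with limma), and the adaptor APPL1 by 0.99 (adjusted p = 0.000194), while VPS33A fell by 1.03 (adjusted p = 3.46e-06) and RAB4A by 0.86 (adjusted p = 9.34e-05). At T24 there were 6 higher and 9 lower, beside 22.1% and 11.5% of all genes. EEA1 was again higher (0.95, adjusted p = 0.000391 with limma), CCZ1, part of the exchange factor for RAB7, was higher by 0.81, RIN3 fell by 1.52 (adjusted p = 5.54e-07) and RAB4B by 1.32 (adjusted p = 0.00054). Between T4 and T24 of PMA-Ionomycin 6 rose and 6 fell, beside 20.3% and 13.4% of all genes, VPS29 (1.52) and VPS8 (1.31) the most upward, GAPVD1 (−1.02) and VPS26A (−0.88) the most downward.

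Of 37 genes of phytanic acid and peroxisomal fatty acid oxidation, 25 were found. With limma 0 were called after LPS at T4, where 1 had an unadjusted p under 0.05, and the median was −0.05 against 0.06 over all genes. At T24 catalase (CAT) fell by 0.52 (adjusted p = 0.0303 with limma), and it was the only one called. That call was lost when any 1 of the 4 rabbits was left out (adjusted p from 0.0829 to 0.342). Of the 25, 3 (12%) were lower at T4 and higher at T24, and of the 13 well above background on all arrays 2 (15.4%), beside 21.0% of all genes and 44.1% of those on all arrays. After PMA-Ionomycin 5 (20%) were called higher and 8 (32%) lower at T4, beside 13.5% and 9.34% of all genes. The peroxisome assembly gene PEX2 fell by 1.45 (adjusted p = 1.41e-08 with limma) and SLC27A2, which activates phytanic acid for PHYH, by 0.78 (adjusted p = 0.012).

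At T24 of PMA-Ionomycin 8 peroxisomal genes (32%) were called higher and 3 (12%) lower, beside 22.1% and 11.5% of all genes. HACL1, the lyase that follows PHYH in the breakdown of phytanic acid, was well above background on all 4 PMA-Ionomycin arrays and on no Control array, and was at least 3.19-fold higher (adjusted p = 1.08e-10 with limma). PEX3 rose by 1.44 (adjusted p = 7.8e-08), CROT, the carnitine octanoyltransferase, fell by 1.80 (adjusted p = 1.19e-09) and CAT by 1.17 (adjusted p = 4.54e-08). Between the times of PMA-Ionomycin 11 (44%) rose and 1 (4%) fell, beside 20.3% and 13.4%, with PEX2 (2.31) and PECR (1.59) the largest rises.

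Of 31 membrane skeleton and MAGUK genes around MPP1, 24 were found. With limma 0 were called after LPS, with 5 at T4 and 2 at T24 at an unadjusted p under 0.05, and the medians were 0.03 and −0.02 against 0.06 and −0.03 over all genes. Of the 24, 7 (29.2%) were lower at T4 and higher at T24, and of the 13 well above background on all arrays 6 (46.2%), near the 44.1% of all such genes. After PMA-Ionomycin 2 (8.33%) rose and 6 (25%) fell at T4, beside 13.5% and 9.34% of all genes, and 4 (16.7%) rose and 7 (29.2%) fell at T24, beside 22.1% and 11.5%. Those that rose at T4 were PALS2 and MPP7, given above. GYPC, the membrane glycoprotein that MPP1 binds in red cells, fell by 1.49 at T4 (adjusted p = 0.0187 with limma), and the raft protein FLOT1 fell by 1.46 (adjusted p = 5.19e-08). At T24 FLOT2 fell by 1.05 (adjusted p = 0.000381 with limma), and EPB41L3, a protein 4.1 relative well above background on 3 Control arrays and no PMA-Ionomycin array, was at least 2.26-fold lower. Between the times 6 (25%) rose, led by FLOT1 (1.63) and DLG1 (1.30), and 4 (16.7%) fell, led by EPB41L2 (−0.68) and ADD2 (−0.61), beside 20.3% and 13.4% of all genes.

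Of 42 centrosome and cilium genes around SDCCAG8, 26 were found. With limma 0 were called after LPS at T4, where 5 had an unadjusted p under 0.05, and 1 at T24, beside 1.03% and 1.22% of all genes. It was ANKS6, a ciliary ankyrin protein, which rose by 0.93 (adjusted p = 0.00219) and was well above background on 1 of 4 Control arrays. That call was lost without rabbit 1, 2 or 4 (adjusted p from 0.0541 to 0.112). Of the 26, 3 (11.5%) were lower at T4 and higher at T24, and of the 12 well above background on all arrays 2 (16.7%), beside 21.0% of all genes and 44.1% of those on all arrays. After PMA-Ionomycin at T4, 3 rose and 3 fell (11.5% each), near the 13.5% and 9.34% of all genes. BBS12 (0.56) and ARL6 (0.52) rose the most, and BBS2 (−1.23) and CEP152 (−0.57) fell the most. At T24 11 rose and 0 fell, beside 22.1% and 11.5% of all genes, with a median of 0.19 against 0.03. ARL6, a GTPase of ciliary transport, rose by 2.0 (adjusted p = 1.15e-11 with limma) and CEP152, a centriole duplication protein, by 1.58 (adjusted p = 8.45e-09), while SDCCAG8 itself was lower at that time. Between the times 9 (34.6%) rose, led by BBS2 (2.49) and TTC8 (2.45), and 3 (11.5%) fell, led by NEK8 (−0.84) and CEP164 (−0.47), beside 20.3% and 13.4% of all genes.

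**Figure D5:**
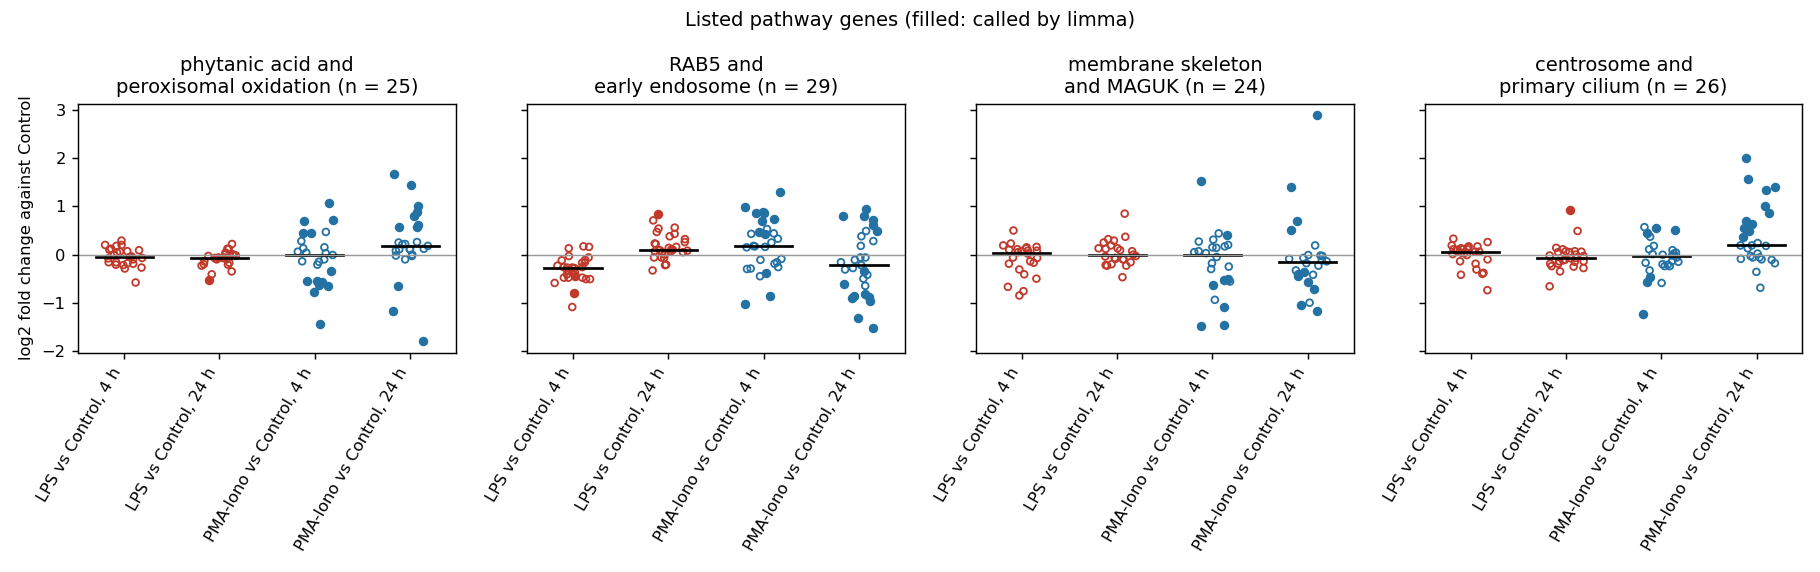
Differences from Control (y axis, log2) of the listed genes of the 4 pathways in each comparison (x axis), 1 point per gene, with genes called by limma marked and the median of each list drawn. The endosome list has its median at −0.28 after LPS at 4 h and 0.10 at 24 h, and the centrosome and cilium list has 11 called genes after PMA-Ionomycin at 24 h, all higher.

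The other genes at or near the LPS limit gave these values after PMA-Ionomycin. RAB10 differed from Control by 0.08 at T4 (adjusted p = 0.812 with limma) and −0.03 at T24 (adjusted p = 0.928), and CLTA by 0.37 (adjusted p = 0.0911) and −0.12 (adjusted p = 0.675). CASP9 fell by 0.62 (adjusted p = 0.00141) and 0.56 (adjusted p = 0.00232) at T4 and T24. JAML fell by 2.24 at T24 (adjusted p = 4.86e-06 with limma) and differed by −0.47 at T4 (adjusted p = 0.388). TAGLN2 and UBE3B were called at neither time.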

How the data were processed

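Gene expression was measured on one-colour Cy3 Agilent arrays in 24 PBMC cultures, 4 rabbits in each of 6 groups. The authors scanned the arrays and extracted them with Agilent Feature Extraction 10.7.3.1 (per the file headers, against build oryCun2), and the deposited scanner files hold spot intensity, not scaled between arrays. The deposited table of log2 values equals log2 median intensity minus each array's mean to within 5e-09 and served as an alternative.

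The members and gene lists were chosen with earlier results of these data known. From the deposited intensity, log2 median signal of the 61657 non-control spots was centred on each array's median, outlier spots were left out (280 to 370 per array), spots were averaged per probe and probes per gene. Genes were named by the files' symbols, or through RefSeq accessions and gene numbers (mOryCun1.1 table), and the PHYH tag by the study's putative annotation. Of 28865 genes 9599 had a symbol. A gene was well above background where any of its probes was. A bound ("at least") set the bright group's mean against the higher of the dim probe's signal and the array's lowest well-above-background signal.

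limma 3.58.1 in R 4.3.3 (lmFit and eBayes, 6 group means over 24 arrays, as the methods state, Benjamini-Hochberg over all genes, threshold 0.05) gave log2 fold changes, SE and adjusted p, and was tested on simulated data. Tables were made with pandas 2.3.3 and numpy 2.4.6 under Python 3.11.15 and plots with matplotlib 3.10.9. Arrays of the same rabbit came from the same animal, so the numbers pair the samples. Deviations from the group means correlated at a median of 0.228 over 60 pairs of the same rabbit and −0.0739 over 180 of different rabbits. Alternatives were other scalings and background corrections, a filter on dim probes, rabbit or slide as a block, single probes, and each rabbit left out. Named genes were the members, their paralogues, those called or nearest to called in both LPS comparisons, the 5 most alike per member, and up to 2 rises and 2 falls per list and comparison, and some genes so chosen from the peroxisomal list, and some listed markers, are not reported here. Arrays give no read depth, so the number of arrays limits the precision.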

Additional observations from a re-analysis of the deposited data

Results flagged for a closer look

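The LPS effect differed in sign between the times for all 5 entries, with all 4 rabbits on opposite sides of 0. The value at T24 minus that at T4 was 2.56 for MPP1, 1.63 for RAB5C, 0.75 for SDCCAG8, 2.15 for the Ensembl PHYH transcript and 1.72 for the PHYH tag. The genes were picked for this difference and it was not tested. The PMA-Ionomycin effect was higher at T24 than at T4 by 0.51 for SDCCAG8 and 1.73 for the Ensembl PHYH transcript. The Control arrays that picked the genes stand in both values, which are therefore descriptions, and PHYH was near background in PMA-Ionomycin while its Control level fell by 1.87. No array stood apart from the other 3 of its group beyond Dixon's 95% limit in the 30 sets of 4 levels examined.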

How the results depend on the processing

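Of 13 alternative settings, all kept the direction of every entry in both LPS and both PMA-Ionomycin comparisons with Control, leaving aside the PHYH tag under PMA-Ionomycin at T24, where its level was not measured. The replicate block (rabbit) changed no PMA-Ionomycin call of the 5 entries. Calls after PMA-Ionomycin at T4 were lost for MPP1 and RAB5C on leaving out a rabbit (MPP1 −1.46 to −0.84, RAB5C −0.63 to −0.41) and for RAB5C with the single probes A_04_P089188 (−0.47) and A_04_P089187 (−0.48).

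The processed signal gave larger values. For the Ensembl PHYH transcript they were 2.21 after LPS at T24, and under PMA-Ionomycin −4.07 at T4 and −1.43 at T24, the last then called. For the tag they were −1.53 and 2.22 after LPS, and under PMA-Ionomycin −3.48 at T4, −1.53 at T24 and −1.10 with time. The tag was well above background on no PMA-Ionomycin array, so these are not measured differences, although the last pair passed the threshold. Under PMA-Ionomycin SDCCAG8 differed by −2.20 at T4, −1.09 at T24 and 1.06 with time, and RAB5C by −1.14 at T24. With this signal the median over all genes was 0.22 after LPS at T4 (0.06 as reported), −0.16 and −0.26 after PMA-Ionomycin at T4 and T24 (0.05 and 0.03), and −0.25 with time (−0.10). Normexp gave PHYH 0.87 and 0.58 (tag) after LPS at T24, and SDCCAG8 was −0.30 after LPS at T4 under both quantile and normexp scaling. A single PHYH probe of the second place gave 0.50 after LPS at T24.

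Reversals concerned time differences after PMA-Ionomycin that had not passed the test. RAB5C was −0.0012 under quantile, −0.06 under processed and −0.02 under normexp scaling and −0.01 within slide 2, MPP1 was −0.01 within slide 3, and PHYH was 0.49 and 0.15 with the 2 probes of the second place and 0.0029 within slide 3.

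Within slides (1 or 2 arrays per group), values also moved for MPP1 after LPS at T24 (2.08 and 0.36), after PMA-Ionomycin at T24 (−1.39 and −2.86) and with time (0.89), for RAB5C after LPS (1.17 and 0.40) and PMA-Ionomycin (−0.37 and −1.29) at T24, for PHYH after LPS at T4 (−1.54) and T24 (1.39 and 0.84) and PMA-Ionomycin at T4 (−1.54 and −2.73), and for the PHYH tag after LPS at T24 (1.13 and 0.58) and PMA-Ionomycin at T4 (−1.79).

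Entries called lower at T4 and higher at T24 after LPS numbered 4 as reported, 2 under quantile and 5 under normexp scaling, 3 with the authors' log2 values, and 0 with the processed signal (278 at an unadjusted p under 0.05 at both times) or with only the arrays of each comparison (517). All genes called by limma after LPS at T4 went from 297 to 96 under quantile normalization, 8 with the processed signal, 71 with the authors' log2 values, 102 under normexp scaling and 1231 with the replicate block. Leaving out rabbit 1, 2, 4 or 5 gave 119, 0, 0 and 101 (4103, 3173, 2102 and 4140 at an unadjusted p under 0.05), and only the arrays of the comparison gave 0 (3524). At T24 the 353 called became 250, 109, 85 and 611 without rabbit 1, 2, 4 or 5, 47 with only the arrays of the comparison and 749 with the replicate block.

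Of the 104 listed genes, 2 were called by limma after LPS at T4. Called genes numbered 0 under quantile normalization, the processed signal and the authors' log2 values, with 23, 19 and 22 at an unadjusted p under 0.05. With the replicate block 5 were called, and on leaving out a rabbit 0 to 1, with 9 to 21 at an unadjusted p under 0.05. After LPS at T24, 3 were called, 1 with the processed signal, 5 with the replicate block, and 0 to 3 on leaving out a rabbit, with 9 to 18 at an unadjusted p under 0.05. The listed-gene counts after PMA-Ionomycin stayed within 1.5 times, 27 to 44 at T4 (39 as reported) and 35 to 55 at T24 (48). The cause of these changes was not tested.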
